A study of Mus musculus with 18 samples.

Results

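The output arm of the circadian clock was examined in mouse liver through the genes Dbp, Tef, Hlf, Nfil3, Ciart, Bhlhe40, Bhlhe41, Rora and Usp2, picked by their names in the count table. They are 9 of the 32285 genes counted, and all 9 were among the 13356 genes tested. RNA came from 18 livers in 3 groups of 6 libraries. Space pups, aged 10 weeks, came from germline stem (GS) cells, the name for spermatogonial stem cells kept in culture. Their GS cells had spent 6 months in a freezer aboard the International Space Station. Ground pups, of the same age, came from GS cells that had spent as long in a freezer on Earth. In both cases the thawed cells were transplanted into the testes of congenitally infertile W mice, which were then mated with C57BL/6 females. BDF1 mice were wild-type controls born after natural mating, and their age is not stated. All 18 animals carry the labels B6D2F1 and wild type. According to the methods, the GS cells had a DBA/2 background with an act-EGFP transgene, which the pups may have inherited. The litter and the sire of each pup are not given, so p-values measure the spread between these animals, some of which may be litter mates.

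The libraries of each group fell into 2 sets by replicate number. Replicates 1 to 3, the first set, had between 0 and 187 counts of Xist, the RNA of the inactive X chromosome, and 1822 to 2482 counts of 4 Y-linked genes. Replicates 4 to 6, the second set, had 12218 to 21557 counts of Xist and 0 to 26 counts of the Y-linked genes. The study states that males and females were analysed, without saying which library is which, and its number of wild-type mice, which may be meant per sex, is lower than that of the BDF1 libraries. The labels give neither the sex nor the hour at which a liver was taken, and sex, hour, litter and batch cannot be told apart as sources of a difference between the sets. The groups were therefore compared within replicates 1 to 3 and within replicates 4 to 6.

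Total counts ranged from 15407450 to 20562351 per library. Levels are given in CPM, which are counts scaled to a common library size with TMM factors. A gene with no count could still reach 0.134 to 0.234 CPM, the value of 3 counts, and this limit and the counting intervals below cover counting error only. Hepatocyte markers were counted in every library, 7 of 7. Their summed level was 215520 to 376237 CPM in the pups of replicates 4 to 6, against 59126 to 100117 CPM in the other libraries, and albumin alone took 17.6% to 24.1% of counts in those 6 libraries against 4.47% to 8.03% elsewhere. In replicates 1 to 3 the hepatocyte markers summed to 90655 to 91305 CPM in Space pups, 72183 to 89990 CPM in Ground pups and 59126 to 72899 CPM in BDF1 mice. Cholangiocyte markers summed to 2.49 to 7.75 CPM in replicates 4 to 6 and, in replicates 1 to 3, to 6.92 to 7.90 CPM in Space pups, 8.86 to 11.2 CPM in Ground pups and 10.7 to 13.8 CPM in BDF1 mice. T, NK and B cell markers summed to 0.484 to 1.21 CPM in replicates 1 to 3 and to 1.33 to 3.24 CPM in replicates 4 to 6. Kupffer cell and macrophage markers summed to 61.1 to 79.7 CPM in Space pups of replicates 1 to 3 and to 112 to 155 CPM in those of replicates 4 to 6, while the sets overlapped in the other groups. Neutrophil markers in replicates 4 to 6 summed to 0.295 to 0.756 CPM in BDF1 mice, 1.34 to 2.14 CPM in Ground pups and 2.25 to 2.89 CPM in Space pups, beside 0.140 to 2.68 CPM in replicates 1 to 3. In replicates 1 to 3, the liver endothelium list summed to 49.6 to 53.9 CPM in Space pups, below the 66.7 to 78.8 CPM of BDF1 mice, and in replicates 4 to 6 to 55.8 to 71.6 CPM in Space pups, below the 84.5 to 105.2 CPM of Ground pups. Stellate cell markers summed to 134 to 160 CPM in Space pups of replicates 1 to 3, to 118 to 139 CPM in Ground pups and to 89.8 to 106.7 CPM in BDF1 mice of that set, beside 110.4 to 176 CPM in replicates 4 to 6. Erythroid markers summed to 30.8 to 80.2 CPM in BDF1 mice of replicates 4 to 6, below the 95.6 to 532 CPM of Ground and the 182 to 665 CPM of Space pups of that set, and to 174 to 284 CPM in BDF1 mice of replicates 1 to 3. The part of these shifts in the results below was not tested, and in bulk RNA fewer cells of a type cannot be told apart from less RNA per cell. Space replicate 6 stood apart by 39.8 CPM of 5 haploid germ cell markers, with at most 4.54 CPM in any other library. Without it, the calls of the 9 genes lost were those of Bhlhe40 in Space pups of replicates 1 to 3 and of Hlf between the sets in Space pups.

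In liver, as in most tissues, the CLOCK and BMAL1 proteins activate genes through E-boxes, and their targets include both their own inhibitors and a layer of output factors that pass the rhythm on. Dbp, Tef and Hlf encode the PAR bZIP activators, which bind D-boxes in genes of xenobiotic and lipid metabolism, and Nfil3 encodes a bZIP repressor that binds the same D-boxes. Ciart (also called Chrono), Bhlhe40 (Dec1) and Bhlhe41 (Dec2) encode repressors that act on CLOCK and BMAL1 or at their E-boxes. Rora encodes a nuclear receptor that activates genes through ROR elements, Nfil3 and Arntl, the gene of BMAL1, among its known targets. Usp2 encodes a deubiquitinating enzyme under clock control and is not itself a transcription factor. Such transcripts rise and fall within a day, Dbp among those with the widest swing.

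On the mm10 build with GENCODE M21, Dbp lies at chr7:45705088-45710203 on the plus strand, Tef at chr15:81802421-81826863 (plus), Hlf at chr11:90336536-90390895 (minus), Nfil3 at chr13:52967209-52981073 (minus) and Ciart at chr3:95878503-95882251 (minus). Bhlhe40 lies at chr6:108660629-108666925 (plus), Bhlhe41 at chr6:145858243-145865558 (minus), Rora at chr9:68653786-69388246 (plus) and Usp2 at chr9:44067021-44095627 (plus). All are protein-coding, and levels refer to the exons of the whole gene. Dbp shares 539 exon bases, 18.0% of its own, with Sphk2 on the opposite strand, and the strand setting of the counting is not given in the sources used here. Sphk2 stayed between 26.1 and 60.0 CPM in all 18 libraries, while Dbp ranged from 0.836 to 206 CPM.

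Promoter sequences were matched by symbol for 8 of the 9 genes in a RefSeq table of GRCm38.p6, all but Bhlhe40. They are shown because the E-box is where the core clock acts. The palindromic E-box CACGTG was searched in the 250 bases before each start site, and 6.02% of 32851 promoters of all genes hold it. It was found in 4 of the 9 promoters of these genes, which belong to Tef, Ciart and Bhlhe41. The Ciart promoter holds 3 copies, 116, 58 and 44 bases before the start, and 0.0609% of all promoters hold 3 or more. A second Tef promoter holds 1 copy, 138 bases before its start. The capitals mark the E-boxes in both, each written 5′ to 3′ on the strand of the gene:
Ciart, chr3:95882229-95882478, minus strand: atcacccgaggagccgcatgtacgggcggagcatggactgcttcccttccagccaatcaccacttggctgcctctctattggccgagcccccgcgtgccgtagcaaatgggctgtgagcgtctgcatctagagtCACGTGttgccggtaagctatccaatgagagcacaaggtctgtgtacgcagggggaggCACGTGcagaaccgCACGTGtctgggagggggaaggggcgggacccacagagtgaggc
Tef, chr15:81811164-81811413, plus strand: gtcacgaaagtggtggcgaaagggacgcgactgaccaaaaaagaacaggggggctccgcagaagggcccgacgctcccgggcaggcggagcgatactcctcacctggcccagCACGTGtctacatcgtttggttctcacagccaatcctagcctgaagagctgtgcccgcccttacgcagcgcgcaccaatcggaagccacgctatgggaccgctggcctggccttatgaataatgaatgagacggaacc

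The other matches are given as windows of 30 bases, with the motif in capitals. Tef has an E-box 127 bases before its upstream RefSeq start, and Bhlhe41 has an E-box 153 bases before its start. In GENCODE M21 all 250 bases searched before that Tef start lie in exons of Tef, so this E-box is inside the gene as annotated there. Nfil3 holds the ROR element TAGGTCA, read on the opposite strand as TGACCTA, 12 bases before its start, and 2.23% of all promoters hold that element on either strand:
Tef, chr15:81802534-81802563, plus strand: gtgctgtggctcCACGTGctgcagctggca
Bhlhe41, chr6:145865556-145865585, minus strand: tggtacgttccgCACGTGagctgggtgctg
Nfil3, chr13:52981034-52981063, minus strand: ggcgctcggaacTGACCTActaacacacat
The D-boxes TTATGTAA (0.819% of all promoters) and TTACGTAA (0.113%) and the ROR element TGGGTCA (3.24%) were searched on both strands and were not in these windows. None of the motifs searched was in the window of Dbp, of which 159 of 250 bases lie in its GENCODE M21 exons. The rest of the Dbp gene was not searched. The ROR element of Nfil3 likewise lies inside the gene in GENCODE M21, where 34 bases of the Nfil3 window are exon. A match describes the letters of a window only.

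Several of the clock output genes differed between the replicate sets, and within replicates 1 to 3 several were higher in pups than in BDF1 mice. In Space pups of replicates 1 to 3, 4 of the 9 genes were higher than in BDF1 mice at an adjusted p under 0.05 and 0 were lower, where 4.64% of all genes tested passed in either direction, 2.85% as higher and 1.8% as lower. These were Dbp, Tef, Ciart and Bhlhe40, and their number ran from 1 to 4 with 1 library left out. In Ground pups of replicates 1 to 3 only Tef passed, as higher, against 1.92% of all genes in either direction and 1.14% as higher. That count was 5 with DESeq2, 4 with limma voom and 0 with total counts, and 0 to 3 with 1 library left out. Within replicates 4 to 6, 0 of the 9 genes passed between Space pups and BDF1 mice (11.9% of all genes), with Dbp, Tef and Hlf at an unadjusted p under 0.05 and 1 call each by DESeq2 and by limma voom. Between Ground pups and BDF1 mice of replicates 4 to 6, Dbp was lower and Hlf higher (15.2% of all genes, 7.35% as lower and 7.86% as higher). The 2 pup groups were compared with the same BDF1 libraries, so their results are not independent of each other.

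The median log2 change of the 9 genes in replicates 1 to 3 was 0.89 in Space pups and 0.75 in Ground pups against BDF1 mice, beside -0.00 and 0.01 over all genes tested. Within the second set the same medians were -0.28 and -0.15, beside 0.01 and 0.01. All values are on the log2 scale.

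**Figure D1:**
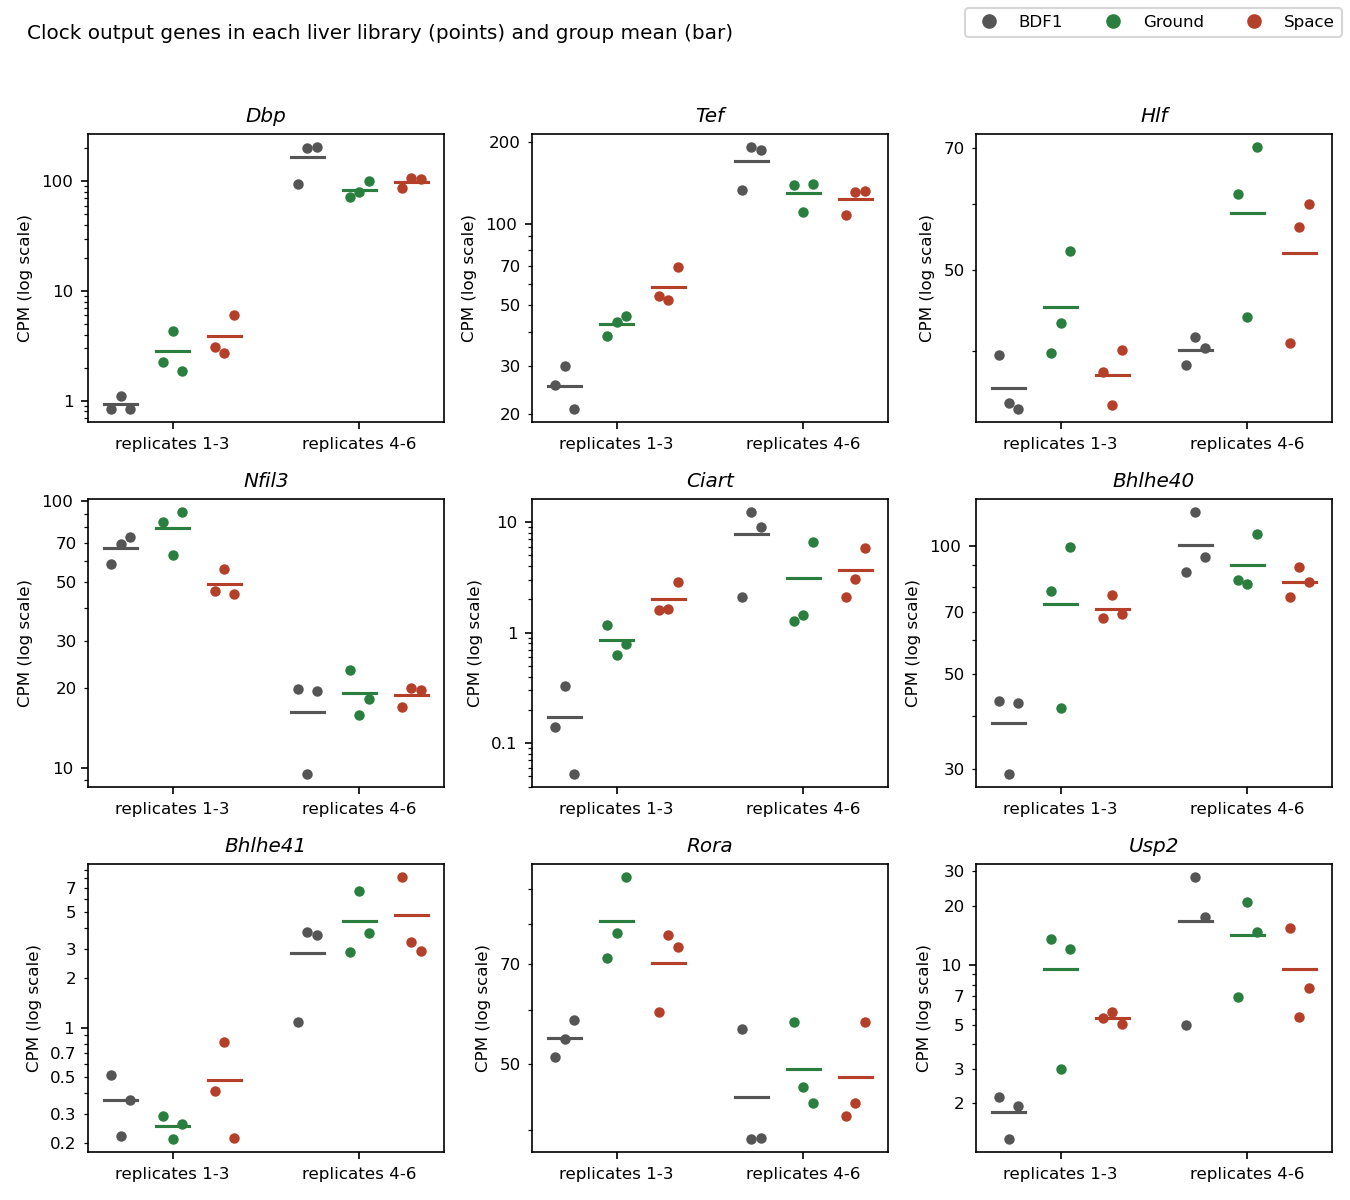
Level of each clock output gene in CPM on a log scale, with 1 point per library, a bar at the mean of each group of 3 libraries, and replicates 1 to 3 and 4 to 6 side by side. Dbp, Tef and Bhlhe41 lay higher and Nfil3 lower in every library of replicates 4 to 6 than in any library of replicates 1 to 3. Bhlhe41 was tested only because of the set in which it was high, and the share of all genes so separated is not given here.

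Dbp, the PAR bZIP activator with the widest daily swing, was barely counted in BDF1 mice of replicates 1 to 3, at 0.843, 1.10 and 0.836 CPM. In Ground pups of that set it was at 2.24, 4.33 and 1.88 CPM. In Space pups it was at 3.06, 2.71 and 6.02 CPM. Every pup of replicates 1 to 3 lay above every BDF1 mouse, and the 2 pup groups overlapped. Against BDF1 mice, Dbp rose 4.27-fold in Space pups, or by 2.10 ± 0.42 on the log2 scale (SE, n = 3 and 3), with an adjusted p of 0.0110 by edgeR's quasi-likelihood test. Without Space replicate 3 the log2 change was 1.64 and the adjusted p 0.0642, so this call rested on that library. In Ground pups the log2 change was 1.60 ± 0.43 with an adjusted p of 0.0689, which became 0.0371 without BDF1 replicate 4.

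In the second set Dbp was at 95.5, 201 and 206 CPM in BDF1 mice. It was at 72.1, 79.6 and 101 CPM in Ground pups and at 87.4, 107 and 104 CPM in Space pups. Here the controls reached the highest levels, with BDF1 replicate 4 among the pups and the other two above all of them. Dbp was 1.99-fold lower in Ground pups than in BDF1 mice, with a log2 change of -0.99 ± 0.29 and an adjusted p of 0.0312. This call was lost without Ground replicate 4 or 5 or BDF1 replicate 5 or 6, at log2 changes of -0.95 to -0.82 and adjusted p-values of 0.0731 to 0.119. In Space pups the log2 change was -0.75 ± 0.29 with an adjusted p of 0.102, and it was -1.03 with an adjusted p of 0.0370 without BDF1 replicate 4.

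Dbp thus lay on opposite sides of BDF1 in the 2 sets, and the difference was tested by an interaction term. The log2 change of Space pups against BDF1 mice was 2.84 lower in replicates 4 to 6 than in replicates 1 to 3 (-2.84 ± 0.52, adjusted p = 0.00688). For Ground pups it was -2.59 ± 0.52 (adjusted p = 0.0158). Both passed in each of the 18 fits that left out 1 library, and with limma voom the Ground value was -2.15 with an adjusted p of 0.0651. Of the 9 genes, Dbp, Tef and Ciart had such a difference for Space pups, where 3.19% of all genes had one, 1.42% in that direction. For Ground pups, Dbp and Tef had one, where 2.74% of all genes had one, 1.4% in that direction.

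The gap between the sets was far wider than that between the groups. In BDF1 mice Dbp was 180-fold higher in replicates 4 to 6 than in replicates 1 to 3, a log2 change of 7.49 ± 0.42 (adjusted p = 1.03e-08). The counts were 54 in 3 libraries against 10497 in the other 3, and the counting interval of their scaled ratio ran from 140 to 243. The rise was 29.9-fold in Ground pups (log2 change 4.90 ± 0.36) and 25.1-fold in Space pups (4.65 ± 0.35).

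Tef, which encodes the second PAR bZIP activator, kept the order BDF1, Ground, Space in replicates 1 to 3 without any overlap. It was at 25.4, 29.9 and 20.7 CPM in BDF1 mice, at 38.7, 43.4 and 45.8 CPM in Ground pups and at 54.1, 52.4 and 69.5 CPM in Space pups. The rise over BDF1 was 2.31-fold in Space pups, with a log2 change of 1.21 ± 0.17 and an adjusted p of 0.000808, and it passed in each of the 18 fits that left out 1 library. In Ground pups it was 1.68-fold, with a log2 change of 0.75 ± 0.17 and an adjusted p of 0.0305. That call was lost without any 1 of the 3 Ground pups or the 3 BDF1 mice of the set, at log2 changes of 0.62 to 0.89 and adjusted p-values of 0.0600 to 0.149. Between Space and Ground pups the log2 difference of Tef was 0.46 with a 95% interval of 0.11 to 0.81, which did not pass after adjustment (adjusted p = 0.401).

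For replicates 4 to 6 Tef was at 133, 191 and 187 CPM in BDF1 mice, at 139, 110 and 140 CPM in Ground pups and at 108, 131 and 132 CPM in Space pups. All 3 Space pups lay just below the lowest control, with a log2 change of -0.46 ± 0.17 and an adjusted p of 0.0764, while Ground pups overlapped with BDF1 mice (-0.39 ± 0.17, adjusted p = 0.122). Without BDF1 replicate 4 these were -0.61 (adjusted p = 0.0407) and -0.54 (adjusted p = 0.0488). The change against BDF1 differed between the sets by -1.67 ± 0.24 for Space pups (adjusted p = 0.00141) and by -1.14 ± 0.24 for Ground pups (adjusted p = 0.0180). The latter call was lost without BDF1 replicate 3, 5 or 6, with log2 values of -1.07 to -1.003 and adjusted p-values of 0.0526 to 0.0564. Between the sets, Tef was 6.72-fold higher in replicates 4 to 6 in BDF1 mice, 3.05-fold in Ground pups and 2.11-fold in Space pups, all called.

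Hlf, the third PAR bZIP activator, moved little. Within replicates 1 to 3 it was at 39.6, 34.7 and 34.1 CPM in BDF1 mice, at 39.8, 43.3 and 52.6 CPM in Ground pups and at 37.8, 34.5 and 40.2 CPM in Space pups. Among replicates 4 to 6 it was at 38.5, 41.6 and 40.3 CPM in BDF1 mice, at 61.6, 43.9 and 70.1 CPM in Ground pups and at 40.9, 56.3 and 59.9 CPM in Space pups. The controls of both sets thus lay between 34.1 and 41.6 CPM, and the highest levels were those of Ground replicates 4 and 6. Within the second set Hlf was 1.46-fold higher in Ground pups than in BDF1 mice (log2 change 0.54 ± 0.16, adjusted p = 0.0334). That call was lost without Ground replicate 4 or 6 or any 1 of the 3 BDF1 mice, at log2 changes of 0.40 to 0.58 and adjusted p-values of 0.0691 to 0.151. It rested on the scaling as well, since the log2 change was 0.07 (adjusted p = 0.793) when total counts replaced the TMM factors. Between the sets, Hlf rose 1.40-fold in Space pups (0.48 ± 0.16, adjusted p = 0.0442) and was at 0.37 in Ground pups and 0.15 in BDF1 mice, which did not pass. The call in Space pups was lost with total counts (0.20, adjusted p = 0.472) and without any 1 of the 6 BDF1 mice or Space replicate 1, 2, 3, 5 or 6, at 0.38 to 0.53 and adjusted p-values of 0.0544 to 0.155.

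Taken as shares of the summed CPM of the 3 PAR bZIP genes, Dbp made up 1.28% to 1.67% in BDF1 mice, 1.87% to 4.75% in Ground pups and 3.02% to 5.21% in Space pups of replicates 1 to 3. In the second set its share was 35.8% to 47.5% in BDF1 mice, 26.4% to 34.0% in Ground pups and 35.2% to 37.0% in Space pups. Such a share does not depend on how libraries are scaled. The Ground pups of replicates 4 to 6 lay below all other libraries of that set.

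Nfil3, the repressor that shares the D-box with these activators, ran opposite to Dbp between the sets. In replicates 1 to 3 it was at 58.3, 69.1 and 73.5 CPM in BDF1 mice, at 83.6, 63.0 and 91.2 CPM in Ground pups and at 46.3, 55.9 and 45.1 CPM in Space pups. For replicates 4 to 6 it was at 19.7, 9.49 and 19.5 CPM in BDF1 mice, at 23.3, 15.8 and 18.2 CPM in Ground pups and at 17.02, 19.99 and 19.6 CPM in Space pups. The highest level of the second set, 23.3 CPM, lay below the lowest of the first, 45.1 CPM. The fall from the first to the second set was 4.13-fold in BDF1 mice (log2 change -2.04 ± 0.23), 4.14-fold in Ground pups (-2.05 ± 0.23) and 2.60-fold in Space pups (-1.38 ± 0.23), all called.

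Within replicates 1 to 3 the Space pups had the lowest Nfil3 levels, with no overlap with either other group. The log2 difference from Ground pups was -0.69 ± 0.22, with a 95% interval of -1.15 to -0.23 and an adjusted p of 0.336. From BDF1 mice it was -0.45 ± 0.22 with an adjusted p of 0.271, so neither passed. Between Space pups and BDF1 mice of that set 35.2% of all genes had no overlap, and the share between Space and Ground pups is not given here. Among replicates 4 to 6 the log2 changes of Nfil3 against BDF1 were 0.22 in Space pups and 0.24 in Ground pups, and all 3 groups overlapped.

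**Figure D2:**
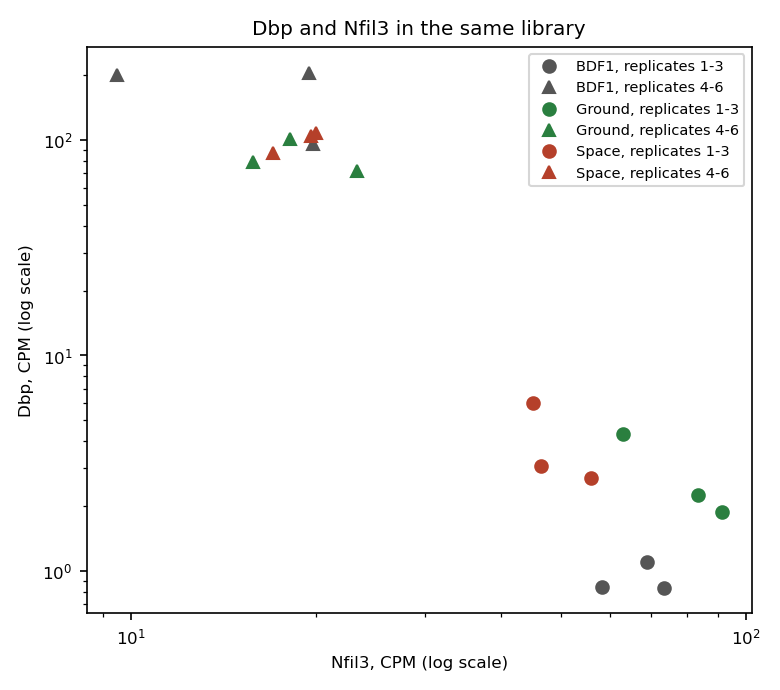
Dbp against Nfil3 in the same library, both in CPM on log scales, with circles for replicates 1 to 3 and triangles for replicates 4 to 6. The 2 sets form separate clouds, low in Dbp and high in Nfil3 for replicates 1 to 3 and the reverse for replicates 4 to 6.

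The ratio of Dbp to Nfil3 counts within a library needs no scaling between libraries. It was 0.0145, 0.0159 and 0.0114 in BDF1 mice, 0.0268, 0.0687 and 0.0206 in Ground pups and 0.0661, 0.0484 and 0.133 in Space pups of replicates 1 to 3. The pups all lay above the controls. Within the second set the ratio was 4.84, 21.1 and 10.5 in BDF1 mice, 3.09, 5.04 and 5.55 in Ground pups and 5.13, 5.38 and 5.32 in Space pups. Here BDF1 replicates 5 and 6 lay above every pup, and the 3 Space pups were nearly equal to each other.

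**Figure D3:**
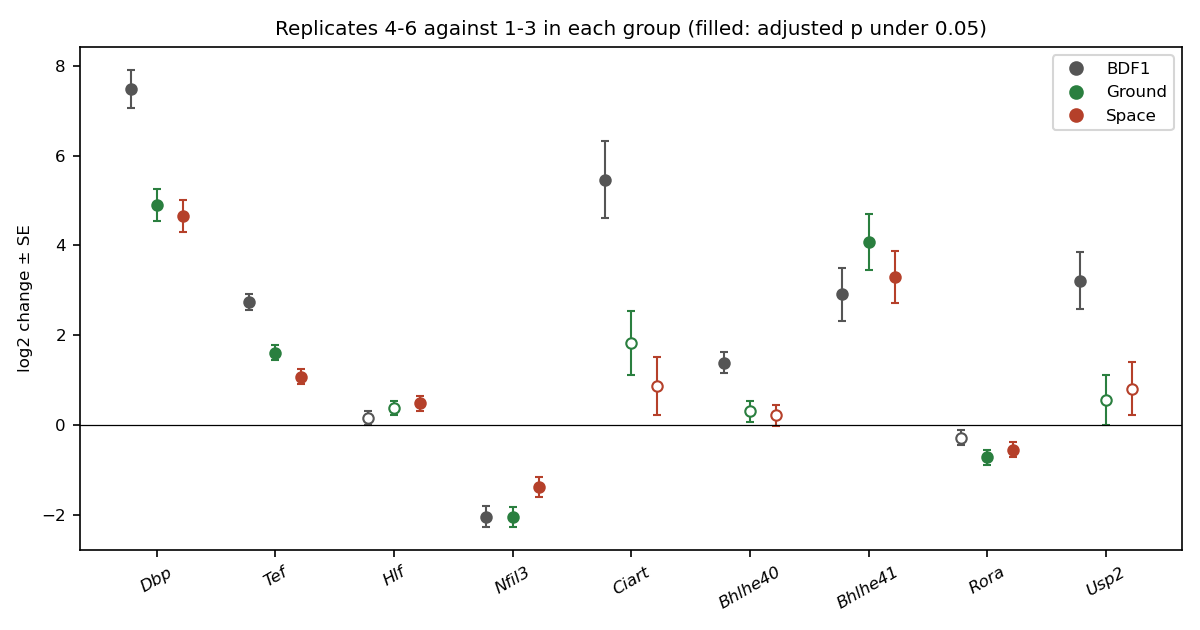
Log2 change of each clock output gene in replicates 4 to 6 against replicates 1 to 3 within each group, with bars of 1 SE and filled points at an adjusted p under 0.05. BDF1 mice had the widest gap for Dbp (7.49), Tef (2.75), Ciart (5.47), Bhlhe40 (1.39) and Usp2 (3.21).

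Between the sets, 6 of the 9 genes were higher and 1 was lower in replicates 4 to 6 in BDF1 mice, where 14.6% of all genes passed, 7.29% as higher and 7.33% as lower. In Ground pups 3 were higher and 2 lower (18.3% of all genes, 9.59% and 8.71%), and in Space pups 4 were higher and 2 lower (21.9% of all genes, 11.6% and 10.4%). Bhlhe41 was tested only because of the set in which it was high, and without it 5 of the other 8 genes were higher in BDF1 mice, 2 in Ground pups and 3 in Space pups. Dbp and Tef were higher and Nfil3 was lower in all 3 groups.

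Ciart, a repressor of CLOCK and BMAL1, stood at the limit of counting in BDF1 mice of replicates 1 to 3, with 3, 6 and 1 counts, or 0.140, 0.329 and 0.0522 CPM. It was at 1.17, 0.633 and 0.782 CPM in Ground pups and at 1.59, 1.64 and 2.85 CPM in Space pups of that set. The 3 groups did not overlap, in the order BDF1, Ground, Space, as for Tef. Summed over 3 libraries, 106 counts in Space pups against 10 in BDF1 mice gave a scaled ratio of 12.1 with a 95% counting interval of 6.32 to 25.9. The fitted log2 change was 3.52 ± 0.92 with an adjusted p of 0.0382. This call was lost without any 1 of the 3 Space pups or the 3 BDF1 mice of the set, with log2 changes of 3.12 to 4.28 and adjusted p-values of 0.0717 to 0.1497. In Ground pups the scaled ratio was 5.10 with a counting interval of 2.56 to 11.3, and the fitted log2 change of 2.29 did not pass (adjusted p = 0.268).

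In the second set Ciart was at 2.12, 12.3 and 9.12 CPM in BDF1 mice. It was at 1.28, 1.45 and 6.63 CPM in Ground pups and at 2.11, 3.07 and 5.84 CPM in Space pups. Each group spread widely, and BDF1 replicate 4 lay among the pups, as it did for Dbp. The log2 changes against BDF1 were -1.08 ± 0.60 in Space pups (adjusted p = 0.247) and -1.35 ± 0.61 in Ground pups (adjusted p = 0.1499), the latter at -2.52 with an adjusted p of 0.0225 without Ground replicate 6. The change against BDF1 differed between the sets by -4.60 ± 1.10 for Space pups (adjusted p = 0.0317). That call was lost without Space replicate 1, 2, 3, 4 or 5 or without BDF1 replicate 1, 2, 3, 5 or 6, at values of -5.36 to -4.12 and adjusted p-values of 0.0523 to 0.0962. For Ground pups the difference was -3.64 with an adjusted p of 0.106, which became -4.82 (adjusted p = 0.0257) without Ground replicate 6 and -4.09 (adjusted p = 0.0450) without BDF1 replicate 4.

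Bhlhe40, which encodes the E-box repressor Dec1, was at 43.4, 29.2 and 42.7 CPM in BDF1 mice of replicates 1 to 3. It was at 78.1, 41.7 and 99.6 CPM in Ground pups and at 67.7, 76.7 and 69.1 CPM in Space pups. All Space pups lay above all controls, whereas Ground replicate 2 lay among the controls. Against BDF1 mice, Bhlhe40 rose 1.85-fold in Space pups (log2 change 0.89 ± 0.24, adjusted p = 0.0419). The call stood close to the threshold and was lost in 11 of the 18 fits that left out 1 library. These were the fits without Space replicate 1, 2, 3, 5 or 6, Ground replicate 1, or BDF1 replicate 1, 2, 3, 4 or 6, with log2 changes of 0.73 to 0.99 and adjusted p-values of 0.0502 to 0.175. In Ground pups the log2 change was 0.93 ± 0.24 with an adjusted p of 0.0546, and it passed without Ground replicate 2 (1.21, adjusted p = 0.00461) or Space replicate 4 (0.93, adjusted p = 0.0475).

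For replicates 4 to 6 Bhlhe40 was at 86.9, 120 and 94.3 CPM in BDF1 mice, at 83.0, 81.2 and 107 CPM in Ground pups and at 76.0, 89.0 and 82.3 CPM in Space pups. These ranges overlapped, and the log2 changes against BDF1 were -0.28 in Space pups (95% interval -0.78 to 0.21) and -0.15 in Ground pups (-0.65 to 0.34). In BDF1 mice Bhlhe40 was 2.61-fold higher in replicates 4 to 6 than in replicates 1 to 3, with no overlap. In pups the same log2 change was 0.30 for Ground and 0.21 for Space, and neither passed. The change of Bhlhe40 against BDF1 differed between the sets by -1.17 ± 0.33 for Space pups (adjusted p = 0.0631) and by -1.08 ± 0.33 for Ground pups (adjusted p = 0.0923). These passed without Ground replicate 2 (-1.17 and -1.36, adjusted p = 0.0107 and 0.0135), and the Space value also without Ground replicate 3 (-1.18, adjusted p = 0.0414).

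Bhlhe41, which encodes the related repressor Dec2, was near the limit of counting in replicates 1 to 3, at 4 to 13 counts per library. It was at 0.515, 0.220 and 0.366 CPM in BDF1 mice, at 0.293, 0.211 and 0.261 CPM in Ground pups and at 0.412, 0.818 and 0.215 CPM in Space pups. Among replicates 4 to 6 it was at 1.08, 3.81 and 3.63 CPM in BDF1 mice, at 2.86, 6.71 and 3.73 CPM in Ground pups and at 8.12, 3.31 and 2.89 CPM in Space pups. Every library of the second set lay above every library of the first. The filter, at 0.560 CPM before TMM scaling, was passed in 9 of 9 libraries of replicates 4 to 6 and in 2 of 9 of replicates 1 to 3, so Bhlhe41 was tested only because of the set in which it was high. The scaled ratio of summed counts between the sets was 7.65 in BDF1 mice (95% counting interval 4.90 to 12.5), 17.1 in Ground pups (10.1 to 31.2) and 9.60 in Space pups (6.28 to 15.3). Groups did not differ in Bhlhe41 within either set at an adjusted p under 0.05. Its exons overlap by 19.0% with Gm43909 on the opposite strand, which is not listed in the count table.

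Rora, the ROR element activator, was at 51.0, 54.4 and 57.9 CPM in BDF1 mice of replicates 1 to 3, at 71.5, 77.6 and 93.8 CPM in Ground pups and at 59.5, 77.0 and 74.0 CPM in Space pups. Every pup lay above every control. The log2 change was 0.57 ± 0.17 in Ground pups with an adjusted p of 0.0924, and 0.37 ± 0.17 in Space pups with an adjusted p of 0.241, and neither passed. Within the second set Rora was at 56.1, 38.7 and 39.0 CPM in BDF1 mice, at 57.5, 46.2 and 43.8 CPM in Ground pups and at 41.8, 43.8 and 57.6 CPM in Space pups, with full overlap of the groups. Rora was 1.65-fold lower in replicates 4 to 6 than in replicates 1 to 3 in Ground pups (log2 change -0.72, adjusted p = 0.00692) and 1.47-fold lower in Space pups (-0.56, adjusted p = 0.0268). The call in Space pups was lost without Space replicate 2, 3, 4 or 5, at -0.52 to -0.47 and adjusted p-values of 0.0797 to 0.1004. In BDF1 mice the log2 change was -0.29 with an adjusted p of 0.282.

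Usp2, the deubiquitinating enzyme, varied widely between animals of 1 group. In the first set it was at 2.15, 1.32 and 1.93 CPM in BDF1 mice, at 13.6, 3.01 and 12.1 CPM in Ground pups and at 5.41, 5.79 and 5.05 CPM in Space pups. In the second set it was at 4.97, 28.0 and 17.5 CPM in BDF1 mice, at 6.94, 20.9 and 14.8 CPM in Ground pups and at 15.5, 5.48 and 7.69 CPM in Space pups. In the first set all pups lay above all controls, and in the second the groups overlapped. The log2 change against BDF1 in replicates 1 to 3 was 2.40 ± 0.64 in Ground pups with an adjusted p of 0.0662, and 1.58 ± 0.66 in Space pups with an adjusted p of 0.196. The Ground value passed when Ground replicate 2 was left out (2.82, adjusted p = 0.0256) and when Space replicate 4 or BDF1 replicate 4 was left out (2.40 each, adjusted p = 0.0473 and 0.0358). In BDF1 mice Usp2 was 9.28-fold higher in replicates 4 to 6 than in replicates 1 to 3 (log2 change 3.21 ± 0.64, adjusted p = 0.00301), and in pups it was at 0.80 (Space) and 0.56 (Ground), which did not pass. The change against BDF1 differed between the sets by -2.41 ± 0.87 for Space (adjusted p = 0.137) and -2.65 ± 0.85 for Ground pups (adjusted p = 0.105), and the latter was -3.09 with an adjusted p of 0.0402 without BDF1 replicate 4.

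**Figure D4:**
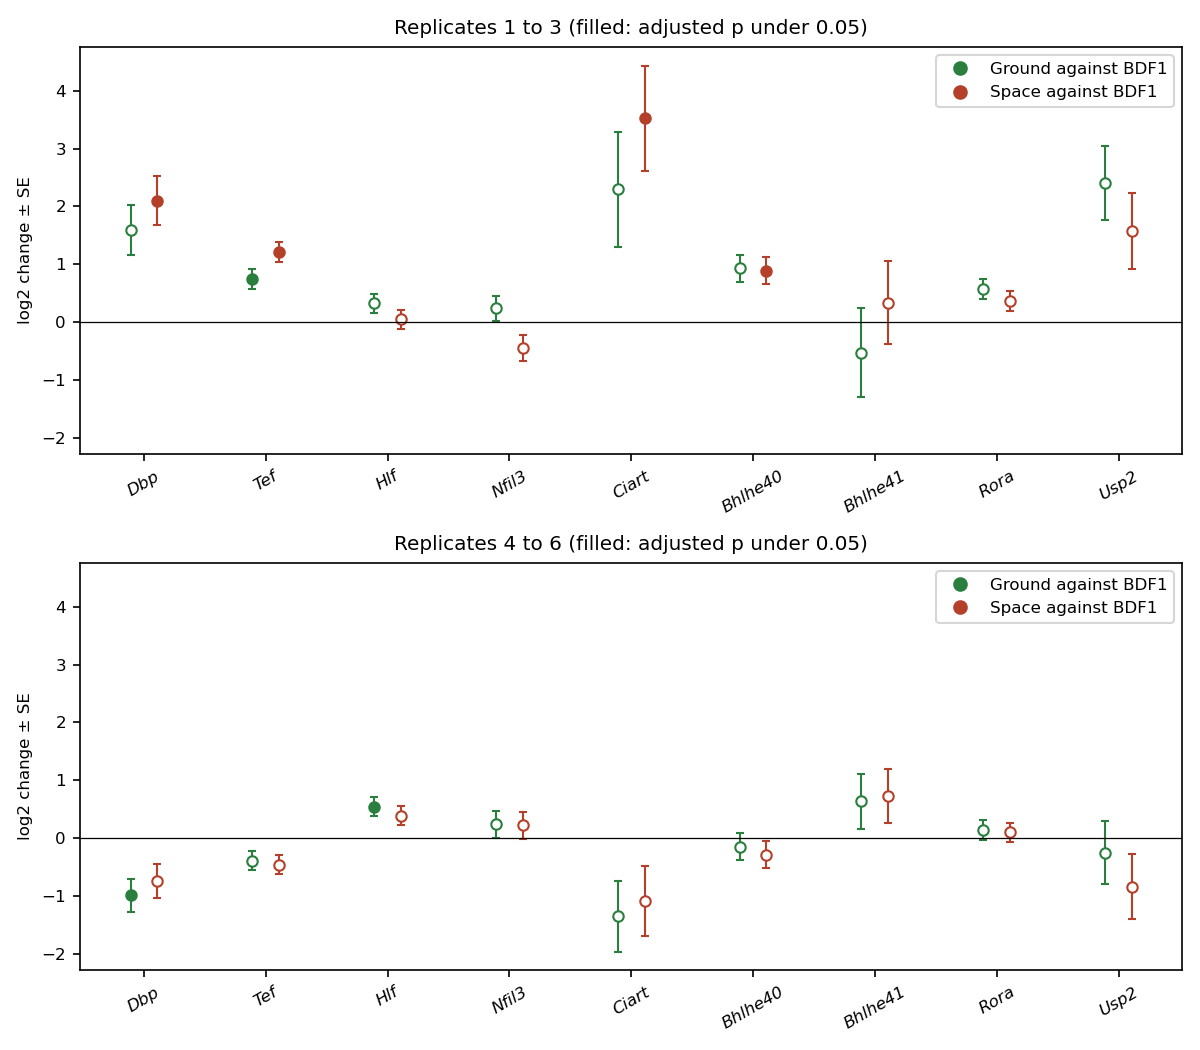
Log2 change of each clock output gene in Ground and in Space pups against BDF1 mice, with bars of 1 SE and filled points at an adjusted p under 0.05, for replicates 1 to 3 (upper panel) and replicates 4 to 6 (lower panel). Dbp, Tef, Ciart, Bhlhe40 and Usp2 lay above 0 in the upper panel and below 0 in the lower one for both pup groups.

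Counted by overlap alone, 7 of the 9 genes had no overlap between Space pups and BDF1 mice of replicates 1 to 3, where 35.2% of all genes had none. They were Dbp, Tef, Ciart, Bhlhe40, Rora and Usp2, all higher, and Nfil3, which was lower. Between Ground pups and BDF1 mice of that set, Dbp, Tef, Hlf, Ciart, Rora and Usp2 were higher without overlap, against 23.9% of all genes without overlap in either direction. For replicates 4 to 6 the genes without overlap were Tef in Space pups (31.5% of all genes) and Hlf in Ground pups (30% of all genes). Between Space and Ground pups of replicates 1 to 3, Tef, Nfil3 and Ciart had no overlap. The shares of all genes without overlap between Space and Ground pups, or between the sets, are not given here, so these separations have no background beside them.

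Space and Ground pups were compared to see whether the place in which the GS cells had been frozen was reflected in these genes. In replicates 1 to 3, 0 of the 9 genes passed by edgeR's quasi-likelihood test, and 0.00749% of all genes did. Before adjustment, 1292 genes had p under 0.05, Tef and Nfil3 among them, DESeq2 called 0 of the 9 and 67 of all genes, and limma voom called 1 of the 9 and 483 of all genes. In replicates 4 to 6, 0 of the 9 genes passed, with log2 changes between -0.59 (Usp2) and 0.26 (Ciart), and 0.0225% of all genes passed, with 1852 genes at an unadjusted p under 0.05. The lowest unadjusted p of the 9 genes there was 0.316 (Usp2), and DESeq2 and limma voom also called 0 of them, with 149 and 0 of all genes called. The 95% interval of the log2 difference in replicates 4 to 6 ran from -0.37 to 0.86 for Dbp, from -0.42 to 0.28 for Tef and from -0.50 to 0.46 for Nfil3. By edgeR's quasi-likelihood test, 0 of the 9 genes and 0% of all genes passed for a difference between the sets in the change of Space against Ground pups. Before adjustment, 1038 genes had p under 0.05 for it, Tef and Nfil3 among them, and DESeq2 called 28 genes, limma voom 12 and the test without a filter 8, with 0 of the 9 in each case. With 1 library left out, the number of all genes called between Space and Ground pups ran from 0 to 76 in replicates 1 to 3 (1 with all libraries, 76 without Ground replicate 2) and from 0 to 75 in replicates 4 to 6 (3 with all libraries, 75 without Space replicate 4 and 20 without Ground replicate 4). For the difference between the sets it ran from 0 to 21, with 21 without Space replicate 4 and 13 without Ground replicate 2, and 0 of the 9 genes were called in any of these fits.

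Levels of different genes were compared per kilobase of exon. Within replicates 1 to 3 Nfil3 was the highest of the 9 genes in each group, with 33.1 ± 3.86 CPM per kb (SD, n = 3) in BDF1 mice, 39.1 ± 7.20 in Ground pups and 24.2 ± 2.91 in Space pups. Bhlhe40 followed with 8.16 ± 1.71, 15.5 ± 6.22 and 15.1 ± 1.03 CPM per kb. Among replicates 4 to 6 Dbp was highest, with 55.9 ± 20.8 CPM per kb in BDF1 mice, 28.1 ± 4.99 in Ground pups and 33.3 ± 3.604 in Space pups. Tef and Bhlhe40 came next and did not differ from each other beyond their spread, with 21.7 ± 4.15 against 21.3 ± 3.68 CPM per kb in BDF1 mice. Bhlhe41 had the lowest mean in all 6 combinations of group and set, at 0.0379 to 0.710 CPM per kb, but in BDF1 mice of replicates 1 to 3 it did not differ from Ciart beyond their spread (0.0546 ± 0.0220 against 0.0770 ± 0.0626 CPM per kb). The order of Dbp and Nfil3 was thus reversed between the sets in every group.

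After each gene was centred on its mean in its own group and set, the genes closest to Dbp over the 18 libraries were Cep131 (Pearson r = 0.893), Gtpbp6 (0.889), Ankzf1 (0.883), Pear1 (0.877) and 2900076A07Rik (0.858), out of 11725 genes ranked. Among the 9 genes, Dbp was closest to Tef (r = 0.670) and Ciart (0.594) and had r = -0.496 with Nfil3, and Usp2 was closest to Bhlhe41 (0.750). These values describe 18 libraries whose points share library depth and scaling, and no test was made of them.

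In the core clock, 15 of 15 listed genes were tested. In Space pups of replicates 1 to 3, 4 were higher than in BDF1 mice and 0 lower, where 4.64% of all genes passed, with Per2 at a log2 change of 2.19 ± 0.27, Per3 at 2.46 ± 0.38 and Nr1d2 at 1.23 ± 0.28. Per2 and Per3 encode period proteins that inhibit CLOCK and BMAL1, and Nr1d2 encodes the REV-ERBβ repressor. In Ground pups Per2 was higher at 2.1996 ± 0.27 and Per3 at 1.96 ± 0.39. The median log2 change of the list was 0.03 in Space and 0.18 in Ground pups, beside -0.00 and 0.01 over all genes.

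In replicates 4 to 6, 2 core clock genes were higher and 1 lower in Space pups, where 11.9% of all genes passed. They were Npas2 (log2 change 1.62 ± 0.34) and Arntl (1.01 ± 0.30), which encode activators of the E-box, and Per3 (-1.11 ± 0.26). In Ground pups Clock was higher (0.68 ± 0.19) and Per3 lower (-1.01 ± 0.26). Tested for a difference between the sets, the change against BDF1 was higher in replicates 4 to 6 for 1 listed gene and lower for 3 in Space pups (3.19% of all genes in either direction). In Ground pups it was higher for 0 and lower for 2 (2.74% of all genes). The change of Per3 against BDF1 differed between the sets by -3.56 ± 0.46 for Space and -2.97 ± 0.47 for Ground pups, both called. Between the sets, Per3 was higher and Arntl and Npas2 were lower in replicates 4 to 6 in all 3 groups, and the log2 change of Per3 was 6.00 ± 0.36 in BDF1 mice.

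Among 10 liver genes listed here as controlled by PAR bZIP factors, 10 were tested. Whether these factors drive the listed genes in these livers was not tested, and other regulators may act on them. Pklr, the liver pyruvate kinase, was higher in both pup groups of both sets. Its log2 change in replicates 1 to 3 was 2.40 ± 0.32 in Space and 1.73 ± 0.31 in Ground pups, and in replicates 4 to 6 it was 1.20 ± 0.30 and 1.10 ± 0.30. Pklr was the only listed gene called in replicates 1 to 3 (4.64% of all genes in Space and 1.92% in Ground pups). In replicates 4 to 6, Nr1i3, which encodes the xenobiotic receptor CAR, was higher in Space (1.04 ± 0.29) and in Ground pups (1.22 ± 0.29). Cyp7a1, the rate-limiting enzyme of bile acid synthesis, was lower in Space pups (-2.34 ± 0.49), and Por, which supplies electrons to cytochromes P450, was lower in Ground pups (-0.46 ± 0.15).

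Between the sets, 5 of these 10 genes were higher and 0 lower in replicates 4 to 6 in BDF1 mice, where 7.29% of all genes were higher. In Ground pups 7 were higher and 0 lower, with 9.59% of all genes higher, and in Space pups 5 were higher and 1 lower, with 11.6% higher and 10.4% lower. Por was higher in each group, with log2 changes of 1.36 ± 0.15, 1.33 ± 0.15 and 1.29 ± 0.15 in BDF1, Ground and Space. So was Cyp2a5, at 2.64 ± 0.26, 2.09 ± 0.26 and 2.84 ± 0.27. Its near-identical neighbour Cyp2a4 went from a mean of 0.363 CPM to one of 742 CPM in BDF1 mice, and reads of the pair may be split in ways not given in the sources used here. Replicates 4 to 6 were also the libraries high in Xist, and the source of this rise was not tested.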

How the data were processed

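The deposited table holds raw read counts per gene. The authors, per the labels, used the Illumina Stranded mRNA Prep kit, and the submitters' processing notes name bcl2fastq 2.20, cutadapt 4.6, HISAT2 2.2.1, HTSeq 2.0.2 and mm10. The methods of the study name GENCODE M21 and single reads on a NextSeq, but also a TruSeq kit and an older cutadapt than the labels and notes, so whether they hold for these libraries is uncertain. No row lacked a gene name. After filterByExpr and TMM scaling, a quasi-likelihood model with 6 cells, group by replicate set, was fitted to all 18 libraries (edgeR 4.0.16, R 4.3.3). There were 12 contrasts, with Benjamini-Hochberg adjustment over 13356 genes, and each SE is |log2 change| divided by the root of F. Log2 CPM used a prior count of 2. Alternatives were other scalings and filters, DESeq2 1.42.0, limma 3.58.1 voom, the libraries of a set only, a replicate block and leaving out each library. The setting without the 10 most abundant genes was added after seeing the data. The 9 genes and all lists were chosen with earlier results of these data known. All 9 genes are named in every comparison except those given by range, and other genes by list, up to 3 with the smallest adjusted p. Some results under this rule are not reported here. No 2 libraries of a group agreed within sampling noise (chi-square per gene at least 9.78).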

Additional observations from a re-analysis of the deposited data

Results flagged for a closer look

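Among 27 sets of 6 libraries, each a gene in a group, 3 had a library far from the other 5, where chance gives about 1.35 such sets. Ciart was at 6.63 CPM in Ground replicate 6, with a gap to the next library of 0.864 of the range of that group. Ciart was also far from the rest in Space replicate 6, at 5.84 CPM and 0.651 of the range. Usp2 was at 15.5 CPM in Space replicate 4, at 0.747 of the range. All 3 libraries belong to replicates 4 to 6, and each set of 6 mixes both replicate sets.

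The change against BDF1 mice differed between the replicate sets by a test of the difference itself for Dbp (-2.84), Tef (-1.67) and Ciart (-4.60) in Space pups and for Dbp (-2.59) and Tef (-1.14) in Ground pups, as log2 values of replicates 4 to 6 less replicates 1 to 3.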

How the results depend on the processing

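Of 30 called results of the clock output genes, 214 of 229 values under other settings kept direction and call and 0 reversed, as did 479 of 540 values with 1 library left out, again with 0 reversed. The number of the 9 genes called in Ground pups against BDF1 mice of replicates 1 to 3 was 1, against 5 with DESeq2, 4 each with limma voom, with no filter and with the libraries of the set only, and 0 with total counts or the replicate block. It was 0 to 3 with 1 library left out, and 3 without Space replicate 4 or BDF1 replicate 4. In replicates 4 to 6 that number was 2, against 0 with the libraries of the set only or the replicate block and 0 to 2 with 1 library left out. For Space pups against BDF1 mice it was 4 in replicates 1 to 3 (1 to 4 with 1 library left out, 1 without Space replicate 3). Among 9 other settings of that comparison, Bhlhe40 lost its call in 2 and Ciart in 1. For Space pups of replicates 4 to 6 the number was 0, against 1 with DESeq2, 1 with limma voom, 3 with total counts and 0 to 2 with 1 library left out, where 2 came without BDF1 replicate 4. Space against Ground pups of replicates 1 to 3 gave 1 with limma voom in place of 0. For the difference between the sets, Ground pups gave 2, against 4 with DESeq2, 5 with total counts, 1 with the replicate block and 1 to 4 with 1 library left out, and Space pups gave 3 (2 to 4). Between the sets the ranges were 4 to 6 in Space pups, 5 to 6 in Ground pups and 7 to 7 in BDF1 mice. The cause of these shifts was not tested.

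Under total counts the median log2 change of all genes was -0.39 for Space and -0.46 for Ground pups against BDF1 mice of replicates 4 to 6, and -0.13 for Space pups of replicates 1 to 3. The calls over all genes for Space pups of replicates 4 to 6 became 337 higher and 4641 lower in place of 859 and 733. Several results that were not called turned with it. Hlf became -0.079 for Space pups of replicates 1 to 3 and -0.00024 for those of replicates 4 to 6, -0.18 for the difference between the sets in Ground pups and -0.059 between the sets in Ground pups. Nfil3 became -0.16 and Rora -0.30 for Space pups and -0.20 and -0.31 for Ground pups of replicates 4 to 6, and Bhlhe40 between the sets became -0.077 in Space and -0.15 in Ground pups.

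The replicate block turned Bhlhe40 between Space and Ground pups of replicates 1 to 3 to 0.048 and Nfil3 for the difference between the sets in Ground pups to 0.021, and limma voom turned the latter to 0.13. The labels do not say whether libraries of the same number share more than that number, and this was not tested. The correlation of their deviations from the mean of group and set ran from -0.601 to 0.251 over 18 pairs. For pairs of other numbers in the same set it ran from -0.331 to 0.501 over 36 pairs. With 1 library left out, results that were not called and turned ran from -0.26 to 0.71 for Bhlhe41 and from -0.061 to 0.38 for Nfil3 and -0.059 to 0.30 for Rora in Space pups (replicates 1 to 3, 4 to 6 and 4 to 6), from -0.027 to 0.40 for Nfil3, -0.29 to 0.00394 for Bhlhe40 and -0.68 to 0.35 for Usp2 in Ground pups of replicates 4 to 6, from -0.32 to 0.25 for Bhlhe40 between Space and Ground pups, and, for the difference between the sets, from -0.21 to 0.99 for Bhlhe41 in Space and -0.27 to 0.16 for Nfil3 in Ground pups. The results that turned, here and above, do not cover single genes for Space against Ground pups of replicates 4 to 6. Nor do they cover the difference between the sets in the change of Space against Ground pups. Depth limits Ciart and Bhlhe41 in replicates 1 to 3.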
